A study of Mus musculus with 10 samples.

Results

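Respiratory chain genes were described in the inner ear of old mice, the 13 subunits encoded by the mitochondrial genome apart from the 84 encoded in the nucleus. Members were chosen by gene symbol alone, as subunits of complexes I to V, and pseudogenes were left out, which gave 97 of the 32285 genes listed. The nuclear members held 35 subunits of complex I, 4 of complex II, 8 of complex III, 20 of complex IV and 17 of complex V, the ATP synthase. The mitochondrial members held 7 subunits of complex I, 1 of complex III, 3 of complex IV and 2 of complex V. The study prepared droplet single-cell RNA libraries (10x, read from the 3′ end) from sensory epithelia of the cochlea and of the vestibule, 5 from each organ. All mice were untreated wild-type CBA/J animals of 22 months and several were pooled in each library, so the values below are of old mice and are no change with age. Replicate 2 of each organ shared 1313 (cochlea) and 1633 (vestibule) cell barcodes with replicate 1, against at most 41 for any other pair, so replicates 1, 3, 4 and 5 were used and n was 4.

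The respiratory chain passes electrons from NADH (complex I) and succinate (complex II) through complexes III and IV to oxygen, and the proton gradient so built drives ATP synthase. The mitochondrial genome encodes core membrane subunits of every complex except complex II, while all other subunits and the assembly factors are encoded in the nucleus and imported. Hair cells (HCs), the mechanosensory cells of the inner ear, are rich in mitochondria, and the HCs of the vestibule fall into flask-shaped type I cells, held in a nerve calyx, and cylindrical type II cells. In the cochlea, inner hair cells (IHCs) signal sound to the nerve and outer hair cells (OHCs) amplify it.

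Some mitochondrial genes overlap in pairs, so reads from the shared bases alone cannot be assigned to either member. Whether the members of such a pair were counted from separate RNAs was not tested, and their levels may not be independent. On GRCm38 mt-Atp8 and mt-Atp6, both subunits of the ATP synthase, share 43 bases (chrM:7927-7969, plus strand), and mt-Nd4l and mt-Nd4, both of complex I, share 7 (chrM:10167-10173, plus strand). The shared bases are in capitals below, and the second line starts at base 10147.
mt-Atp8 with mt-Atp6: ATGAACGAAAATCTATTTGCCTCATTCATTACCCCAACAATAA
mt-Nd4l with mt-Nd4: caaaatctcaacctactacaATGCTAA

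For nuclear members, promoter windows of 300 bases (250 before and 50 after the start, RefSeq, GRCm38.p6) were found for 67 of 84 genes. The motifs of 2 factors known to regulate this chain were searched on both strands. The NRF1 motif GCGCNTGCGC was in 18 of the 72 windows of members, belonging to 17 genes, and in 4.6% of all 32851 windows. The ETS motif CCGGAAG, the kind bound by Gabpa, was in 17 of the 72 windows (17 genes, 23.6%) and in 8.86% of all windows. The median GC content was 57.3% in windows of members and 52.7% in all windows. A match is only a run of letters, and the part of GC content in these shares was not tested. Of the 6 nuclear members whose levels differed between type I and type II HCs (described further on), 4 had a window. The window of Ndufb2 held neither motif. For each of the other 3 genes, a window that held one is printed here, with the motif in capitals. Atp5j and Ndufa5 each had a second window. That of Atp5j (chr16:84835576-84835875) held neither motif, and that of Ndufa5 held the NRF1 motif.
Atp5j, chr16:84834927-84835226, minus strand, ETS: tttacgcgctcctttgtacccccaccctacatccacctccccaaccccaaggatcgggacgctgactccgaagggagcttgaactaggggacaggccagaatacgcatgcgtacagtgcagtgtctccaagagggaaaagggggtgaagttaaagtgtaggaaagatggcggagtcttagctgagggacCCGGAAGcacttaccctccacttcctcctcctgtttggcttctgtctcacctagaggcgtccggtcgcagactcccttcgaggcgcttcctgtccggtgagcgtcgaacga
Ndufa5, chr6:24527477-24527776, minus strand, NRF1 on the other strand: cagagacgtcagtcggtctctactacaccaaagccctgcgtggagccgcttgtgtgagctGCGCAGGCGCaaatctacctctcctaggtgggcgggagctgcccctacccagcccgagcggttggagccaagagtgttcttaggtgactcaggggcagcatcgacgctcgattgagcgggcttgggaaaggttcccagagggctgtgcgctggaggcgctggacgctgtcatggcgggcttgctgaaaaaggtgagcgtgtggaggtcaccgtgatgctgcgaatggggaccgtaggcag
Ndufs8, chr19:3912725-3913024, minus strand, ETS on the other strand: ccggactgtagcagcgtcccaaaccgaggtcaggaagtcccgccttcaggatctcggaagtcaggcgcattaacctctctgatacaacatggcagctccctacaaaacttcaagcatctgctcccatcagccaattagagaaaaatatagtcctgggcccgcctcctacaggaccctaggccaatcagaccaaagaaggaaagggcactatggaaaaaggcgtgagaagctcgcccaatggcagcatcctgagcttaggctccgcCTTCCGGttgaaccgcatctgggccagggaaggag

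A barcode entered as a cell from 200 genes and 1000 UMIs (unique molecular identifiers, each a transcript counted once) upwards, and if under 25% of its UMIs were mitochondrial. This left 571 to 5070 cells per cochlear library and 867 to 5438 per vestibular library, and replicate 3 was the largest in both organs. Before any limit, mitochondrial genes took 3.19% to 11.6% of the UMIs of a library, lowest in replicate 4 and highest in replicate 3 in both organs. Clusters were made without the 97 members and named from markers, which gave 1490 type I HCs, 279 type II HCs, 145 IHCs and 77 OHCs. Vestibular HC subclusters were typed by Adam11 and Sox2. Adam11, a type I marker, had a UMI in 93.1% of cells of the largest type I subcluster and in 7.4% of the larger type II subcluster, and Sox2, a type II marker, in 0.7% and 75.9%. Spp1 did not separate them, at 100% and 80.1%. Of the 145 IHCs, 31 formed a subcluster with a median of 1778 UMIs, against 10359 and 15664 in the other IHC subclusters. Of the IHC markers, Otof had a UMI in 96.8% of these 31 cells. Slc17a8 and Tbx2 had one in 38.7% and 19.4%, against at least 91.3% and 73.3% in the other IHC subclusters. A subcluster of 234 vestibular cells that shared 9 of its 10 leading genes with mesenchymal cells, and 3590 cochlear and 2618 vestibular cells without enough markers, were left unnamed. Levels are given as CPM, the UMIs of a gene per 1000000 UMIs of a class in a library. Transcripts of nuclear members are counted at their 3′ end, so their CPM need no division by length. How fully each mitochondrial RNA was captured was not tested, so CPM may not rank different mitochondrial members by abundance. Many nuclear members have processed pseudogenes or close paralogs, so their counts are uncertain by the reads these copies share.

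Classes of the inner ear differed several-fold in the share of UMIs that came from the 84 nuclear members. It was highest in cochlear neuronal cells, at 7.80% ± 1.95 (SD, n = 4), followed by marginal or dark cells of the vestibule, the ion-transporting epithelium, at 6.77% ± 0.45 (n = 4), and cochlear melanocytes at 6.48% (n = 2). These 3 classes overlapped each other in range, and all their libraries lay above those of the next class, cochlear nonsensory epithelial cells at 3.62% ± 0.83. Among HCs, IHCs had 3.27% ± 0.86, OHCs 3.19% ± 0.49, type I HCs 3.06% ± 0.19 and type II HCs 2.70% ± 0.15, at ranks 6, 7, 8 and 11 of 26. Vestibular supporting cells, the epithelial neighbours of the HCs, had 2.36% ± 0.25. Vestibular erythroid cells, at 0.935% ± 0.258, and cochlear granulocytes, at 0.819% (n = 2), were lowest. From rank 4 downwards, each class overlapped the next in range.

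The 13 mitochondrial members followed another order. Cochlear melanocytes led with 14.8% and 17.5% in replicates 3 and 5, the only class whose libraries all lay above the next. Vestibular supporting cells had 11.0% ± 3.16, OHCs 10.5% ± 2.93, marginal or dark cells 9.51% ± 3.76, IHCs 8.15% ± 2.82, type II HCs 6.17% ± 2.39 and type I HCs 5.69% ± 2.21. Cochlear neuronal cells, first by nuclear members, had only 3.39% ± 2.10, and erythroid cells of the vestibule were lowest with 1.29% ± 0.85. Mitochondrial UMIs per nuclear member UMI were therefore 4.69 ± 1.40 in vestibular supporting cells, 1.88 ± 0.77 in type I HCs and 0.45 ± 0.27 in neuronal cells. The neuronal class joined a cluster of 226 cells, led by genes such as Slc17a7 and Syt2, with a cluster of 73 cells with a median of 1479 UMIs. Much of the spread in the mitochondrial share was between libraries, since replicate 3 was highest in 17 and replicate 4 lowest in 17 of the 19 classes with all 4 libraries. The nuclear share was lowest in replicate 1 in 14 of 19.

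**Figure D1:**
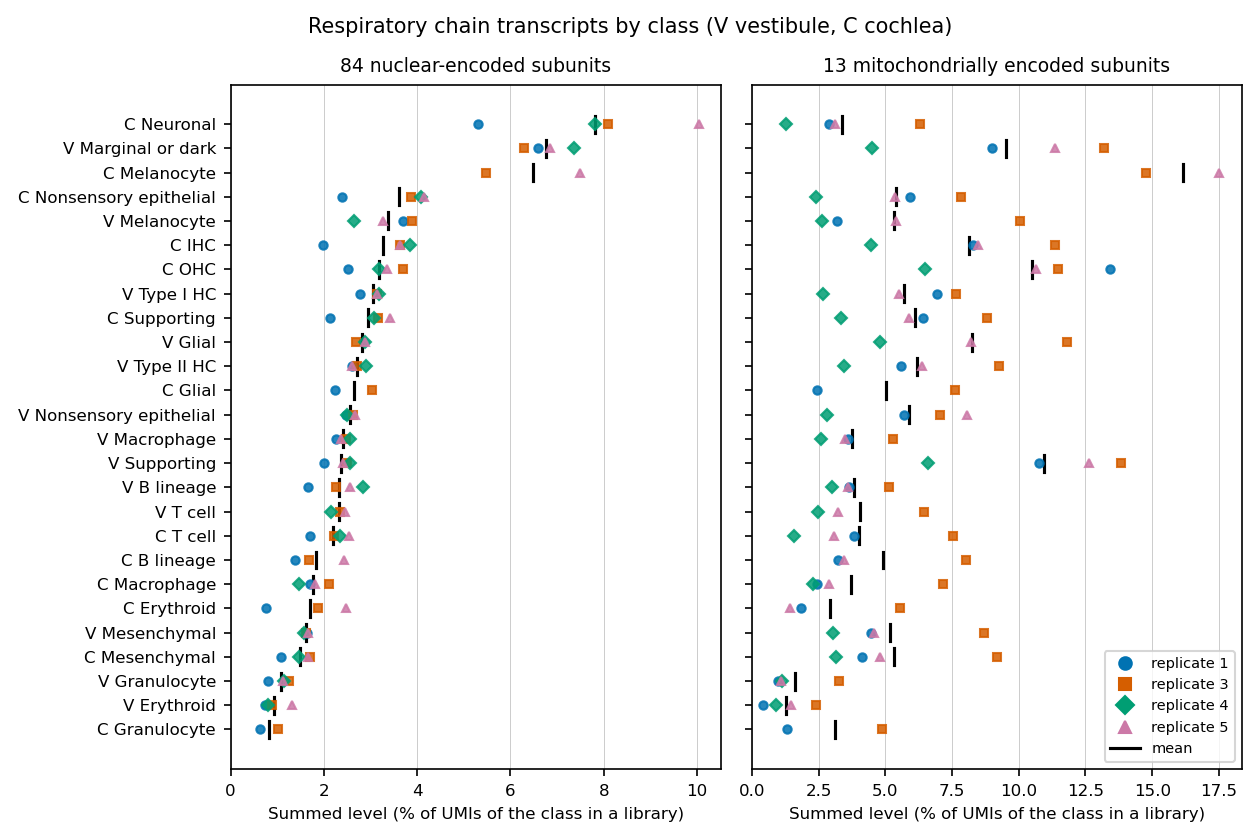
Share of UMIs (%, x axes) from the 84 nuclear and the 13 mitochondrial members in each class (V vestibule, C cochlea), with a point per library and a black bar for the mean. Neuronal cells, marginal or dark cells and cochlear melanocytes stand above 5% in nuclear members, and replicate 3 lies at the right and replicate 4 at the left of most classes in mitochondrial members.

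The limit of 25% acts on the mitochondrial members themselves, because they are all the mitochondrial genes the files list. With the limit lifted and classes clustered again, 785 of 8057 cochlear cells and 678 of 11102 vestibular cells reached it. They were 64.9% of cochlear melanocytes (259 of 399, exact 95% interval 60.01 to 69.6), 27.3% of OHCs (30 of 110, 19.2 to 36.6) and 12.7% of vestibular supporting cells (81 of 639, 10.2 to 15.5). In type I HCs they were 4.79% (76 of 1587, 3.79 to 5.96), in IHCs 2.72% (4 of 147) and in type II HCs 1.06% (3 of 284, 0.218 to 3.06). Among vestibular HCs left unnamed, which are not part of vHCs here, they were 21.4% (58 of 271, 16.7 to 26.8). These intervals cover counting error only. Without the limit the mitochondrial share rose from 16.1% to 30.1% in cochlear melanocytes, from 10.5% to 14.3% in OHCs and from 11.0% to 12.3% in vestibular supporting cells, but from 5.69% to 6.06% in type I HCs and from 6.17% to 6.23% in type II HCs. Glial cells moved more than OHCs, from 5.02% to 9.69% in the cochlea (n = 2, with 34 of 95 cells at the limit) and from 8.27% (n = 3) to 15.3% (n = 4) in the vestibule, where replicate 1 had enough cells only without the limit. Marginal or dark cells were not recovered as a named class without the limit. Of their 127 cells, 124 joined a cluster of 247 cells, 119 of them at the limit, in which 2 markers passed where 3 were needed, so the values of this class hold only for cells under the limit.

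**Figure D2:**
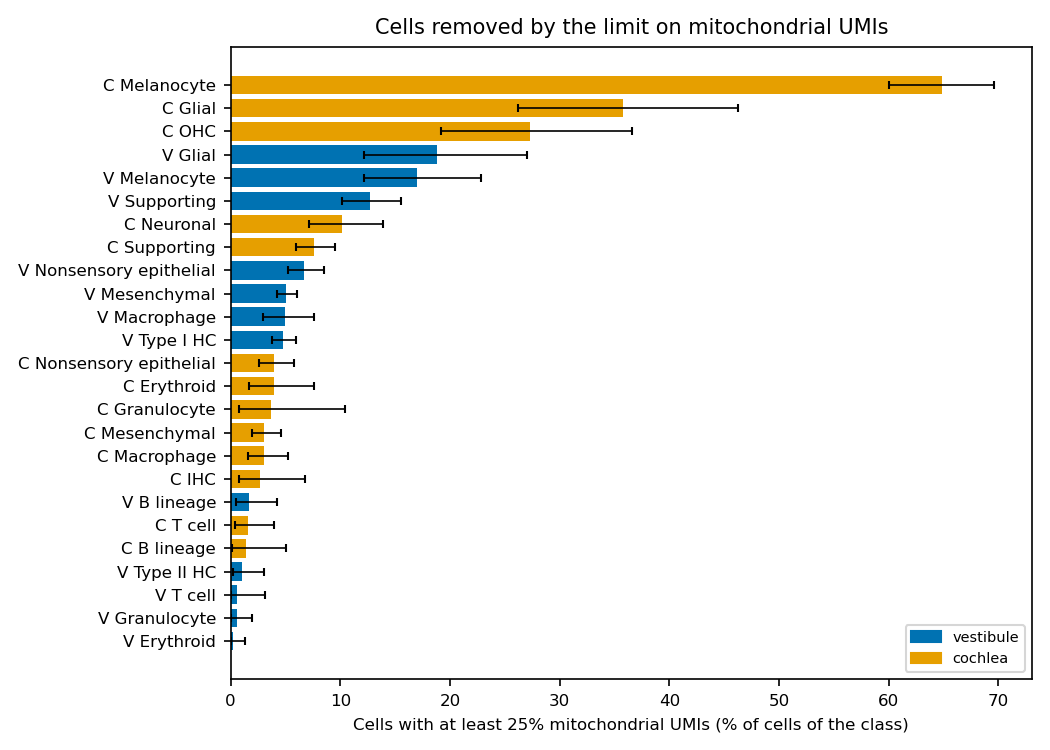
Percent of cells of each named class with at least 25% mitochondrial UMIs (x axis), with exact 95% binomial intervals over cells of all 4 libraries of an organ. Unnamed cells are left out. Cochlear melanocytes reach 64.9%, and type II HCs 1.06%.

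Vestibular HCs (vHCs) are type I and type II HCs together, with 6014661 of their 7414391 UMIs from type I HCs. Within vHCs the CPM of the mitochondrial members spanned 2 orders of magnitude. The highest means were those of mt-Atp6, a proton-channel subunit of ATP synthase, at 9963 CPM ± 5118, and mt-Co2, which takes electrons from cytochrome c, at 7928 CPM ± 3125. The lowest means were those of mt-Nd3 at 1049 CPM ± 720 and mt-Nd6, the member encoded on the opposite strand from the other 12, at 96.7 CPM ± 33.0. By library in the order 1, 3, 4, 5, mt-Atp6 was 13860, 14538, 3913 and 7540 CPM and mt-Nd6 118.7, 126.4, 54.0 and 87.6 CPM. Replicate 4 was the lowest in both. The order was not the same in every library, since mt-Co2 exceeded mt-Atp6 in replicate 4 (4195 CPM), mt-Co1 exceeded it in replicate 5 (8049 CPM), and mt-Nd5 was below mt-Nd3 in replicate 1 (1233 and 2076 CPM).

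Most nuclear members had lower means than the mitochondrial ones other than mt-Nd6, but Cox8a and Atp5j exceeded mt-Nd5 (1475 CPM), and these as well as Atp5mpl and Ndufa4 exceeded mt-Nd3. In complex I, Ndufs5 (582 CPM ± 105) and Ndufa2 (550 ± 38.6) were highest and Ndufa9 (36.8 ± 6.44) lowest, all accessory subunits. In complex II, which oxidizes succinate, the iron-sulfur subunit Sdhb had 131 CPM ± 7.41, the flavoprotein Sdha 119 ± 16.0, and the membrane anchors Sdhc 55.3 ± 14.1 and Sdhd 45.0 ± 8.67. In complex III, Uqcr11 (721 ± 38.6) and the hinge protein Uqcrh (619 ± 90.2) were highest and the core protein Uqcrc1 (86.0 ± 7.18) lowest. In complex IV, Cox8a (2053 ± 129) and Ndufa4 (1117 ± 118), once assigned to complex I, were highest, while Cox7b2 and Cox8c had no UMI. In complex V, the coupling factor Atp5j (1527 ± 182) and the small membrane subunit Atp5mpl (1384 ± 162) were highest and Atp5d (201 ± 22.5) lowest.

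Type I HCs differed from type II HCs in 6 nuclear members, 3 of complex I, 2 of ATP synthase and 1 of complex II, and by the largest fold in Atp5mpl. Atp5mpl was 1750, 1427, 1401 and 1784 CPM in type I HCs of replicates 1, 3, 4 and 5 and 697, 417, 486 and 555 CPM in type II HCs. The 2 types did not overlap, and the difference was 1.66 ± 0.18 (log2, SE), 3.16-fold, with an adjusted p of 1.27e-07 (edgeR quasi-likelihood test on UMIs summed per library, Benjamini-Hochberg over 7963 genes). Atp5j was 1450, 1670, 1867 and 1642 CPM in type I HCs and 844, 975, 1283 and 875 CPM in type II HCs. Again all type I libraries were the higher ones, and the log2 difference was 0.81 ± 0.17 (adjusted p = 0.00142). Sdhc (log2 0.88 ± 0.27), Ndufs8, an iron-sulfur subunit of complex I (0.74 ± 0.25), and Ndufa5, an accessory subunit of complex I (0.47 ± 0.15), were also higher in type I HCs, although the libraries of the types overlapped for Sdhc and Ndufs8. These calls were less stable than those of Atp5mpl and Atp5j, which passed under all 18 alternatives run. Sdhc passed under 14 and not without replicate 3 or 4, Ndufa5 under 13 and not without replicate 3, 4 or 5, and Ndufs8 under 12 and not without replicate 1, 3 or 4. With HC clusters kept that shared leading genes with another class, the log2 difference of Ndufs8 was 0.048 (adjusted p = 0.888, edgeR). Ndufb2, of the membrane arm of complex I, was lower, with 157 to 206 CPM in type I and 264 to 365 CPM in type II HCs, without overlap (log2 -0.63 ± 0.15, adjusted p = 0.00336).

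In all, 5 of 76 tested nuclear members were higher and 1 was lower in type I HCs, against 8.07% and 9.48% of all genes tested, so calls were no more frequent than among other genes in this fit. The median log2 difference was 0.14 over the nuclear members and 0.01 over all genes, and 63 of 76 were positive, among them all 17 of complex V. The summed share of complex V was 0.954%, 1.01%, 1.01% and 1.05% in type I HCs of replicates 1, 3, 4 and 5, above the 0.782%, 0.745%, 0.827% and 0.706% of type II HCs. That of complex I, at means of 0.964% and 0.944%, overlapped. The complex V sums include Atp5mpl and Atp5j, its 2 members called, and sums without them were not computed. The median log2 difference of the 17 complex V members was 0.22. None of the 13 mitochondrial members passed the test, also at an unadjusted p under 0.05, and their median difference was -0.01. Both types come from the same libraries, and with the replicate as a block 18 of the 76 nuclear members were higher, 8 of them of complex V, against 11.5% of all genes, 2 were lower, against 13% of all genes, and mt-Co1 was lower (1 of 13). Without replicate 3, and without replicate 4, 2 nuclear members were higher.

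Among other genes of the pathway, Ppargc1a, the coactivator PGC-1α that drives mitochondrial biogenesis, had 32.3 CPM in type I against 13.2 CPM in type II HCs (log2 1.56 ± 0.34, adjusted p = 0.00151), the only regulator called of 6 tested. Of all genes tested, 8.07% were higher and 9.48% lower in type I HCs. Of 36 assembly factors, 3 (8.33%) were higher and none lower, near or below these shares. The 3 were Ttc19 (complex III, log2 0.74), Pet100 (complex IV, 0.65) and the copper chaperone Cox17 (0.59). Of 75 mitochondrial ribosomal proteins, Mrps33 (0.52) and Mrpl52 (0.44) were higher and Mrpl10 lower (-0.86), and none of 15 carriers was called, with 4 at an unadjusted p under 0.05. Beside these, the immediate early gene Jun was lower in type I HCs (-1.43), and Malat1, a nuclear RNA, stood at 46047 CPM against 47424 CPM. Whether these had a part in the differences was not tested.

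**Figure D3:**
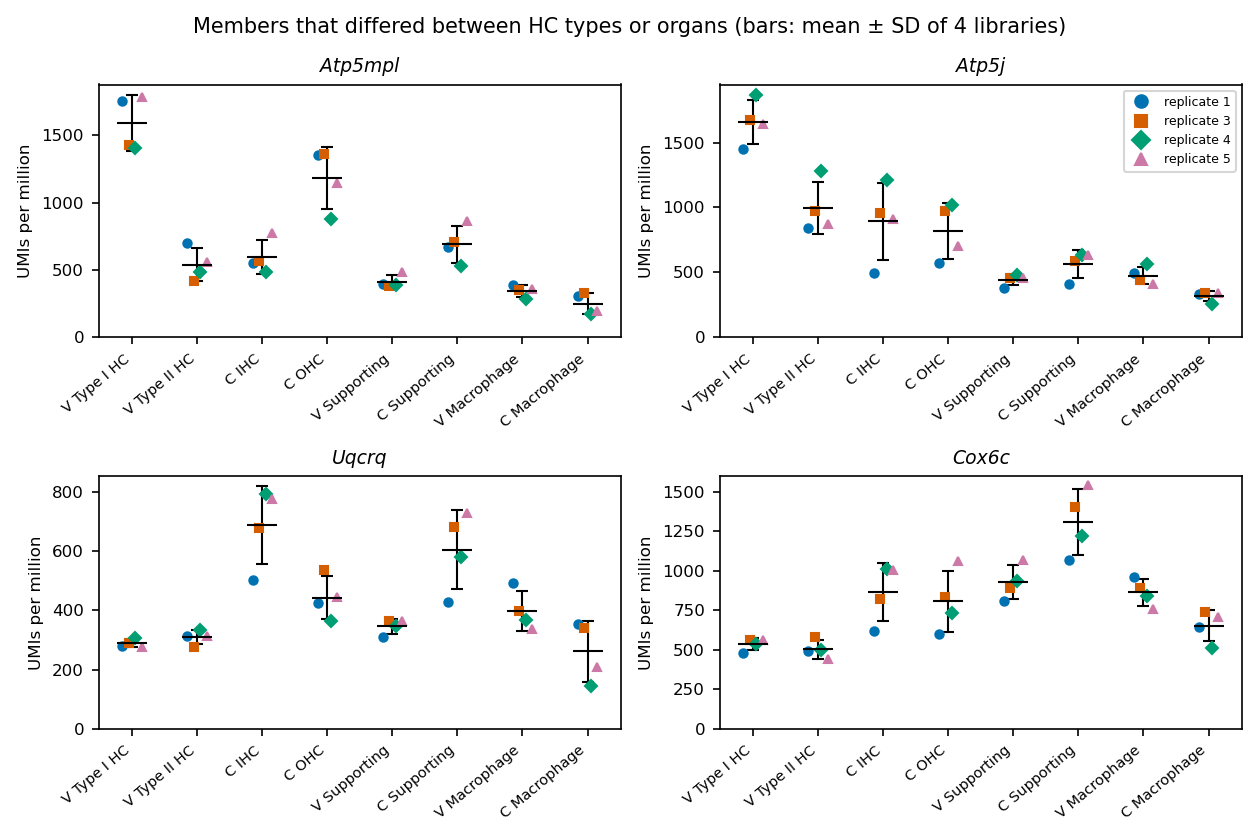
CPM (y axes) of Atp5mpl, Atp5j, Uqcrq and Cox6c in 8 classes (V vestibule, C cochlea), with a point per library and the mean ± SD of 4 libraries. Type I HCs stand above type II HCs in Atp5mpl and Atp5j without overlap, and vestibular HCs stand below IHCs in Uqcrq.

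Type I HCs were not uniform in mitochondrial members. In the subcluster of 269 cells led by genes such as Ocm and Calb1, which mark central zones of the vestibular epithelia, the mitochondrial share was 9.09%, 10.1%, 4.03% and 7.36% in replicates 1, 3, 4 and 5. In the largest subcluster, of 576 cells, it was 5.82%, 6.38%, 2.19% and 4.33%, and in the next, of 381 cells, 5.99%, 6.36%, 2.37% and 3.85%. The share was thus higher in the Ocm subcluster in each of the 4 libraries, while nuclear members took 3.33% ± 0.27 there and 3.18% ± 0.23 and 3.26% ± 0.12 in the others. Median UMIs per cell were 3826, 4214.5 and 4404. A subcluster of 203 cells with a median of 1548 UMIs had 11.8% ± 3.38 in mitochondrial and 1.38% ± 0.42 in nuclear members. A subcluster of 61 cells, with a median of 7821 UMIs, had enough cells in replicates 1 and 3 only, with 4.47% and 7.12% in mitochondrial and 2.41% and 2.01% in nuclear members. Its mitochondrial share was thus below that of the largest subcluster in replicate 1 and above it in replicate 3. As the subclusters were defined by expression, these are descriptions without a test.

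By summed share of all UMIs, vestibular HCs carried less mitochondrial and more nuclear respiratory chain RNA than vestibular supporting cells. Single nuclear members went both ways. Of the 13 mitochondrial members, 12 were lower in vHCs, against 29.4% of all 9232 genes tested that were lower and 29.3% that were higher, and the median log2 difference was -1.09 against 0.04 over all genes. The largest were mt-Nd6 (log2 -1.50 ± 0.25, adjusted p = 1.36e-05), mt-Co1, the catalytic subunit of complex IV (-1.42 ± 0.32, adjusted p = 0.000514), and mt-Co2 (-1.20 ± 0.31). The others were mt-Nd4l and mt-Nd4 (-1.15 each), mt-Co3 (-1.10), mt-Cytb of complex III (-1.09), mt-Atp8 (-1.04), mt-Nd1 (-1.02), mt-Atp6 (-1.003), mt-Nd2 (-0.99) and mt-Nd5 (-0.89). Only mt-Nd3 did not pass, and mt-Atp6, mt-Atp8, mt-Nd4l and mt-Nd5 did not pass without replicate 5. With the replicate as a block all 13 passed, against 32.1% of all genes that were lower. In CPM, mt-Co1 was 8212, 11082, 3758 and 8049 in vHCs of replicates 1, 3, 4 and 5 and 16880, 22927, 10681 and 21515 in supporting cells.

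Summed over the 13 members, vHCs had 6.67%, 7.94%, 2.80% and 5.71% and supporting cells 10.7%, 13.8%, 6.61% and 12.6%. The ranges overlapped between libraries, but vHCs were the lower in 4 of 4 libraries, at 0.621, 0.574, 0.423 and 0.452 of the supporting cells. With only cells under 10% mitochondrial UMIs kept, 2 of the 13 were lower namely mt-Nd6 (log2 -0.93) and mt-Co1 (-0.84), and the share in supporting cells was 6.31%. Malat1 moved the other way, at 46356 CPM in vHCs and 13422 CPM in supporting cells (log2 1.63 ± 0.35), without overlap, and the median UMIs per cell were 3986.5 in type I HCs and 2174 in supporting cells. Globin RNA took 0.0095% to 0.222% of UMIs in vHCs and 0.0117% to 2.47% in supporting cells. The part of RNA quality, depth and red cell RNA in the differences was not tested.

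Nuclear members took 2.75%, 3.06%, 3.14% and 3.02% of UMIs in vHCs and 2.00%, 2.49%, 2.55% and 2.42% in supporting cells, without overlap, and complex V 0.957% against 0.642%. These shares are of all UMIs, mitochondrial ones included. The complex V shares include Atp5j and Atp5mpl, and sums without these 2 were not computed. Of the 17 complex V members, 12 had a positive log2 difference. Per UMI of nuclear genes alone, type I HCs had 2.99% to 3.39%, above the 2.24% to 2.88% of supporting cells. Type II HCs, at 2.76% to 3.02%, overlapped supporting cells. Of 79 tested, 15 were higher and 10 lower in vHCs, both below the shares of all genes, with a median log2 difference of 0.12. Atp5j (log2 1.58 ± 0.20, adjusted p = 1.66e-07) and Atp5mpl (1.55 ± 0.19, adjusted p = 1.29e-07) led again. Atp5mpl was 392, 380, 390 and 487 CPM in supporting cells and at least 1242 CPM in every vHC library. The vHC values are mostly those of type I HCs. Type II HCs taken alone, with the Atp5mpl values given above, overlapped supporting cells. Ndufv3 of the NADH-binding part of complex I (1.01 ± 0.17), Cox5a of complex IV (0.69 ± 0.20) and Atp5o, the stalk subunit OSCP of ATP synthase (0.68 ± 0.21), were the next. By complex, 8 of 35 members of complex I and 6 of 17 of complex V were higher, 3 and 2 were lower, and none of the 4 of complex II passed. With the replicate as a block 26 nuclear members were higher and 15 lower, against 32.3% and 32.1% of all genes, and without replicate 3, 6 were lower.

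The members most strongly lower in vHCs were isoforms of complex IV. Cox4i2, the isoform of subunit 4 known from lung and from low oxygen, was 182, 182, 171 and 166 CPM in vestibular supporting cells and 0, 1.38, 1.86 and 0 CPM in vHCs (log2 -7.41 ± 0.31, adjusted p = 3.65e-16). From 338 and 8 pooled UMIs, the ratio was 165 (exact 95% interval 82.7 to 385, counting error only). The size depended on which clusters counted as HCs, since with the mixed HC clusters kept the log2 difference was -2.78 ± 0.22, and it was -7.82 to -7.06 under the other alternatives. Cox7a1, the isoform known from heart and muscle, was 44.2 CPM ± 7.24 in supporting cells and 7.82 ± 2.79 in vHCs (log2 -2.70 ± 0.29). Ndufs8 (-1.17 ± 0.17), Cox6c (-1.01 ± 0.19) and Cox7a2l, a factor of respiratory supercomplexes (-0.67 ± 0.20), were also lower, the last not without replicate 3.

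Of 37 assembly factors 10 were higher in vHCs and 4 lower, of 17 carriers 5 and 3, and of 76 mitochondrial ribosomal proteins 14 and 7, near or below the 29.3% higher and 29.4% lower of all genes. Sco2 (log2 2.05 ± 0.37) and Coa6 (1.49 ± 0.23), which deliver copper to complex IV, and Ndufaf1, a complex I factor (1.52 ± 0.38), were higher, whereas Cox14 (-0.98), Surf1 (-0.73) and Sdhaf4 (-0.63) were lower. Among carriers and coenzyme Q enzymes, Coq4 (1.52), Coq9 (1.14) and Coq3 (0.94) were higher, and the uncoupling protein Ucp2 (-3.55 ± 0.23, 10.8 against 126 CPM), Coq10b (-1.15) and Coq2 (-0.61) were lower. Mrps6 (1.21), Mrpl39 (1.16) and Mrpl33 (1.12) were the ribosomal proteins most increased, and Mrpl36 (-1.22), Mrpl4 (-1.16) and Mrpl9 (-0.85) those most reduced. Of 7 regulators Gabpa was lower (-0.57). The immediate early gene Egr1 was higher (2.42) and Ier2 lower (-3.44).

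**Figure D4:**
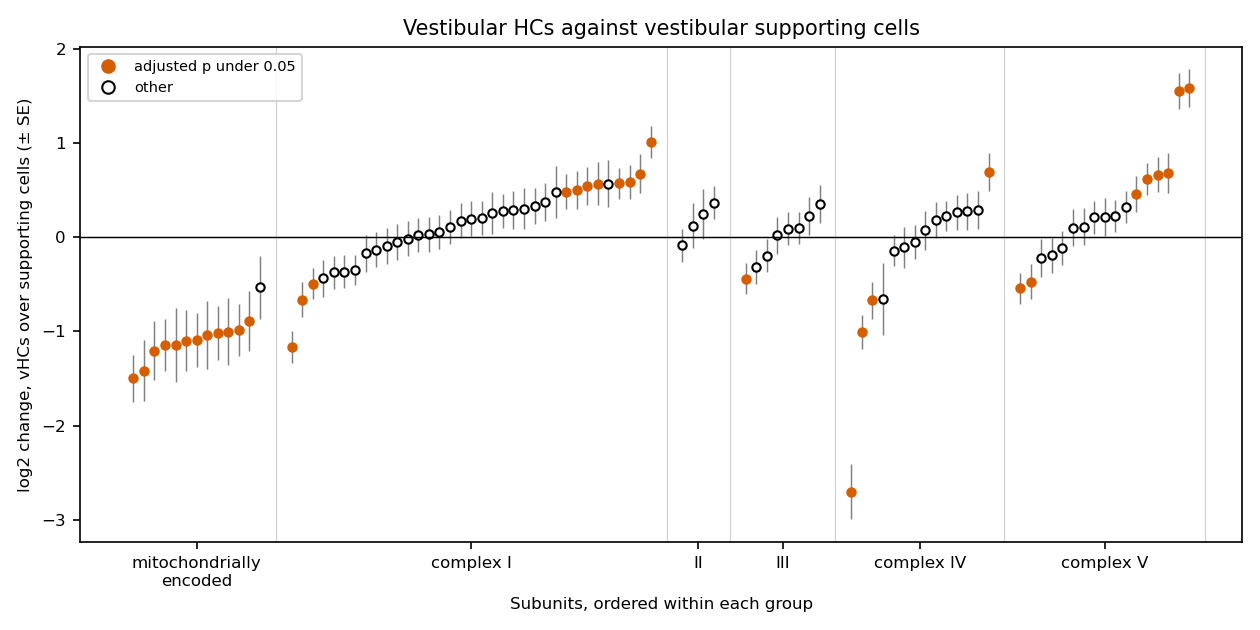
Difference between vestibular HCs and vestibular supporting cells (y axis, log2 ± SE, edgeR) for each tested member, ordered within the mitochondrially encoded group and complexes I to V, with filled points past an adjusted p of 0.05. All mitochondrial members lie below 0, and Cox4i2, at -7.41, is left off the axis.

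Compared with cochlear HCs (cHCs, IHCs and OHCs together, 1584841 of their 1818081 UMIs from IHCs), vHCs had higher Atp5mpl and Atp5j, both of complex V, and lower levels of 8 nuclear members, 3 of complex I, 2 of complex III, 2 of complex IV and 1 of complex V. Atp5mpl was 1544, 1247, 1242 and 1501 CPM in vHCs and 738, 642, 522 and 830 CPM in cHCs, without overlap (log2 0.99 ± 0.21, adjusted p = 0.000671). The cHC values are mostly those of IHCs, and OHCs taken alone overlapped vHCs, as given further on. The vHC values are mostly those of type I HCs. Type II HCs taken alone overlapped cHCs in both Atp5mpl and Atp5j. Atp5j was 1332 to 1765 CPM in vHCs and 514 to 1191 CPM in cHCs, also without overlap (0.75 ± 0.25, adjusted p = 0.0205). Uqcrq, the ubiquinone-binding subunit of complex III, was 287, 288, 311 and 286 CPM in vHCs and 485, 665, 752 and 727 CPM in cHCs, and the organs did not overlap (-1.20 ± 0.20, adjusted p = 5.83e-05). Cox7a1 (-1.20 ± 0.38, on levels of 7.82 and 19.0 CPM), Ndufs8 (-0.79 ± 0.25) and Cox6c (-0.73 ± 0.21) were lower too. Of these, Atp5mpl and Uqcrq passed with each library left out, whereas Atp5j did not pass without replicate 3 or 5, Cox7a1 without 4, Cox6c without 4 or 5, and Ndufs8 without 3, 4 or 5.

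In all, 2 of 77 nuclear members were higher and 8 lower in vHCs, against 20.6% and 17.4% of all 8918 genes tested, and the median log2 difference was -0.21 against 0.03 over all genes. The count of lower members depended on the libraries, with 26 without replicate 1 and 2 without any of replicates 3, 4 or 5. Cochlear replicate 1 stood apart, with 2.11% of UMIs from nuclear members in its cHCs against 3.63%, 3.78% and 3.59% in replicates 3, 4 and 5, and vHCs had 2.75% to 3.14%. Mitochondrial members were lower in vHCs in all 13 log2 differences, with a median of -0.64, but mt-Nd6 alone passed (-1.04 ± 0.31, 96.7 against 199 CPM, adjusted p = 0.0119) and 8 had an unadjusted p under 0.05. That of mt-Nd6 did not pass without replicate 5. Against 18.7% of all genes that were lower, all 13 mitochondrial members were lower with the replicate number as a block. Their summed share was 9.49%, 11.4%, 4.66% and 8.80% in cHCs, so that vHCs were lower in 4 of 4 replicate numbers while the ranges overlapped. Malat1 was 46356 CPM in vHCs and 30379 CPM in cHCs (log2 0.59, adjusted p = 0.109), and the part of RNA quality was not tested.

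Other genes of the pathway moved in both directions between the organs, where 20.6% of all genes tested were higher and 17.4% lower in vHCs. Called either way were 22.2% of regulators, 24.4% of assembly factors, 31.2% of carriers and 7.89% of mitochondrial ribosomal proteins, against 38% of all genes. Ppargc1a was higher in vHCs (28.6 against 8.63 CPM, log2 1.84 ± 0.40), and Polg, the polymerase of mitochondrial DNA, was lower (-1.21 ± 0.28), 2 of 9 regulators tested. Of 41 assembly factors 3 were higher, namely Ttc19 (1.31), Ndufaf6 (1.16) and Coa6 (1.12), and 7 lower, led by Coa3 of complex IV (-2.04 ± 0.26, 151 against 602 CPM), Uqcc2 of complex III (-1.05) and Ndufaf4 (-0.90). Of 16 carriers Coq4 was higher (1.48) and 4 were lower, among them Ucp2 (-1.59), cytochrome c (Cycs, -0.61) and the ADP/ATP carrier Slc25a5 (-0.59). Of 76 mitochondrial ribosomal proteins 3 were higher (Mrps6 at 1.58, Mrpl23 at 0.82 and Mrpl15 at 0.78) and 3 lower (Mrpl40 at -0.75, Mrps15 at -0.74 and Mrps36 at -0.58). The immediate early genes Ier2 (-3.43), Jun (-2.05) and Junb (-1.79) were lower in vHCs, where their list took 0.0110% to 0.0171% of UMIs against 0.0194% to 0.0649% in cHCs, and their part in the organ difference was not tested.

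Macrophages, present in both organs, served to ask whether other cells of these libraries differed in the same way. None of 73 nuclear and 13 mitochondrial members passed in edgeR or in DESeq2, where 0.421% of all 2613 genes tested were higher and 0.536% lower in the vestibule. Nevertheless 70 of the 73 nuclear log2 differences were positive, with a median of 0.40 against 0.01 over all genes, and 11 had an unadjusted p under 0.05. Nuclear members took 2.25%, 2.47%, 2.56% and 2.37% of UMIs in vestibular and 1.71%, 2.12%, 1.47% and 1.81% in cochlear macrophages, without overlap. Globin RNA, a trace of red cells, took 0.00427% to 5.48% and 0.0423% to 3.40% of these UMIs, and the immediate early and heat shock list 0.0945% to 0.207% and 0.114% to 0.724%. Malat1 was 19381 CPM and 32424 CPM, without overlap (log2 -0.69, adjusted p = 0.229). Their part was not tested.

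The organ difference in HCs differed from that in macrophages for Uqcrq (interaction log2 -1.62 ± 0.37, adjusted p = 0.00338) and Cox6c (-1.10 ± 0.36, adjusted p = 0.0455), 2 of 77 nuclear members, against 5.59% of 7777 genes lower and 4.62% higher. HCs and macrophages of an organ and replicate number come from the same library. The fit took their sums as independent, so its p-values leave out this pairing. Uqcrq was lower in vHCs (-1.20) and 0.50 ± 0.30 in vestibular over cochlear macrophages, and Cox6c -0.73 and 0.42 ± 0.26. None of the 13 mitochondrial members passed, also at an unadjusted p under 0.05. The count was 6 without replicate 1, 1 without replicate 3 and 0 without replicate 4 or without replicate 5. Among other pathway genes Coa3 (-2.34), Cycs (-1.44), Ucp2 (-1.54), Uqcc2 (-1.31) and Cox14 (-1.07) were lower. None of 3 regulators and 71 mitochondrial ribosomal proteins was called, with 0 and 12 at an unadjusted p under 0.05. Egr1 (2.46), Ier2 (-2.94) and Malat1 (1.28) differed as well, and their part was not tested.

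The nuclear members Ndufa5, Atp5mpl and Atp5j were higher both in type I over type II HCs and in vHCs over supporting cells, and the last 2 also in vHCs over cHCs. The comparisons share the vHC libraries. Their levels in cochlear HCs, are given as values because OHCs are few. Atp5mpl was 550, 568, 485 and 773 CPM in IHCs and 1353, 1357, 875 and 1145 CPM in OHCs, so OHCs did not overlap IHCs. They did overlap vHCs, at 1242 to 1544 CPM. Type II HCs, with the values given above, overlapped IHCs and lay below OHCs. The difference between vHCs and cHCs was thus one of type I HCs, mainly from IHCs. Atp5j, in contrast, was 892 CPM ± 295 in IHCs and 816 ± 214 in OHCs, which overlapped. Ndufa5 was 381 CPM ± 119 in IHCs and 650 ± 142 in OHCs.

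Several subunits exist as paralogous isoforms, and some of these stood out in 1 or 2 of the named classes. Endothelial and mural cells were not among the named classes. Cox4i1, the general form of subunit 4, reached 1662 CPM ± 321 in neuronal cells and 551 in vHCs. Among the named classes Cox4i2 was highest in supporting cells, with 175 CPM in the vestibule and 22.7 CPM ± 6.11 in the cochlea. Over all barcodes of the 8 libraries it had 1149 UMIs, against 338 in vestibular and 71 in cochlear supporting cells. Others thus lay in other classes, in unnamed cells or in barcodes not kept. From pooled UMIs the ratio of vestibular to cochlear supporting cells was 7.51 (exact 95% interval 5.80 to 9.85). Cox7a1 was 1172 CPM ± 194 in marginal or dark cells and 333 CPM in cochlear melanocytes, against a mean over libraries of 49.3 CPM or less in every other named class. Vestibular melanocytes were uneven, at 0, 172.5, 0 and 20.2 CPM in replicates 1, 3, 4 and 5, which gave 116 CPM in pooled UMIs (57 UMIs). Its general counterpart Cox7a2 was also highest in marginal or dark cells, at 2605 CPM ± 320, and Cox7a2l reached 415 CPM there. The ratio of Cox7a1 in marginal or dark cells to vHCs was 138 from pooled UMIs (104 to 184), and to vestibular supporting cells 23.8 (18.8 to 30.4).

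Cox8b, the muscle form of subunit 8, was 1419 CPM in cochlear melanocytes (n = 2), 285 CPM ± 163 in vestibular melanocytes, 226 ± 47.5 in marginal or dark cells and 226 ± 43.1 in neuronal cells. In vHCs it was low but unequal, with 38 UMIs in type II and 16 in type I HCs, a ratio of 10.2 per UMI of the class (5.56 to 19.6), and no UMI in IHCs or OHCs. Cox8a, the general form, was 5682 CPM ± 2173 in cochlear nonsensory epithelial cells and 2053 in vHCs. Cox6a2, the muscle form of subunit 6a, was 0, 81.1, 76.3 and 130 CPM in vestibular macrophages and 70.5, 24.6, 0 and 0 CPM in cochlear macrophages, while its counterpart Cox6a1 led in neuronal cells (925 CPM ± 102). In cochlear B lineage cells Cox6a2 was 0, 21.4 and 769 CPM in replicates 1, 3 and 5, so the level came from a single library of 8 cells.

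Cox6b1 was highest in marginal or dark cells (1465 CPM ± 193), and Cox6b2, known from testis, had a mean over libraries of 50.4 CPM or less in every named class and 64.9 CPM or less in pooled UMIs, there from 57 UMIs of cochlear erythroid cells. Cox7b reached 1370 CPM ± 292 in neuronal cells, and Cox7b2 and Cox8c were at or near 0 everywhere. In the 6014661 UMIs of type I HCs, the absence of a UMI of Cox7b2 allows up to 0.499 CPM. Ndufa4 was 4776 CPM ± 1801 in neuronal cells, against 2174 or less in any other class, and its relative Ndufa4l2 had a mean of 5.27 CPM or less, with a highest pooled level of 12.6 CPM from 4 UMIs in a single library of cochlear B lineage cells. Of the 3 genes for the c subunit that forms the ATP synthase rotor, Atp5g1 (2034 CPM ± 617) and Atp5g3 (1349 ± 347) were highest in neuronal cells, whereas Atp5g2 was highest in cochlear melanocytes (1026 CPM) and exceeded the other 2 in vHCs (632 CPM, against 422 and 266). Complex II was highest in neuronal cells for Sdha (305 CPM ± 116) and Sdhb (283 ± 87.7), and in marginal or dark cells for Sdhc (209 ± 92.0) and Sdhd (127 ± 41.0).

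**Figure D5:**
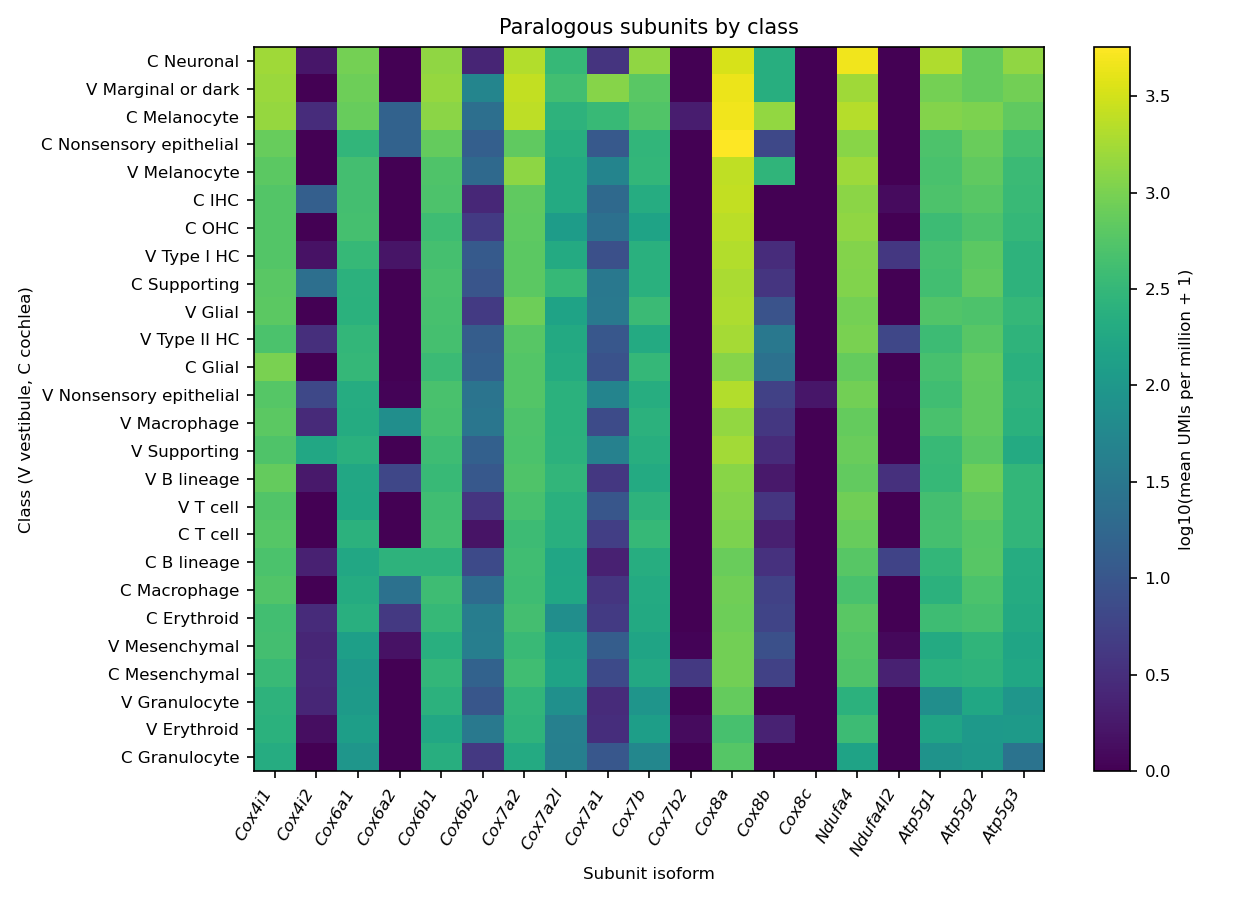
Mean level of 19 isoform genes (columns) in each class (rows, V vestibule, C cochlea, ordered by the summed nuclear share), colour on a log10 scale of CPM + 1. Cox4i2 stands out in supporting cells at 175 CPM, Cox7a1 in marginal or dark cells at 1172 CPM, and Cox8b in cochlear melanocytes at 1419 CPM.

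The makeup of the mitochondrial UMIs also differed between libraries in a way that classes shared. In vHCs, mt-Atp6 was 20.8%, 18.3%, 13.98% and 13.2% of the UMIs of the 13 members in replicates 1, 3, 4 and 5, and in cHCs 16.2%, 16.2%, 13.4% and 12.7%. The share of mt-Nd4l in vHCs was 4.54%, 7.79%, 5.78% and 9.50%, and it was lowest in replicate 1 in all 19 classes with 4 libraries. The share of mt-Nd3 was highest in replicate 1 in 17 of 19 classes, and those of mt-Co3 and mt-Atp6 in 16. Replicate 1 was counted with another version of the read counter than the others (5.0.1 against 6.1.2), and whether this had a part was not tested.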

How the data were processed

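Per the labels, reads of Chromium 3′ v3.1 libraries were counted with Cell Ranger on mm10, and the authors deposited raw UMI counts per gene and barcode called as a cell. Version 5.0.1 stands in the headers of replicates 1 and 2, and 6.1.2 elsewhere. Here, cells within the study's limits (200 genes, 1000 UMIs, 25% mitochondrial UMIs) were clustered per organ in Seurat 5.3.0 (R 4.3.3) on 2000 variable genes and 30 components at resolution 1 (HCs again at 0.5), without the 97 members. A cluster was named where at least 3 markers had a UMI in at least 25% of cells and a log2 fold of at least 1, and an HC subcluster stayed unnamed if it shared 5 of its 10 leading genes with a class other than HCs. No doublet caller was run, and doublets were not removed.

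UMIs were summed per library and class, from 5 cells upwards. These sums went into edgeR 4.0.16 (TMM factors, filterByExpr, quasi-likelihood test, Benjamini-Hochberg over all genes tested, threshold 0.05). Replicates are pools of several mice. Type I and type II HCs, and vHCs and supporting cells, of a number come from the same library, and their deviations from the group means correlated at 0.191 to 0.279 and at 0.136 to 0.308, so values with the replicate as a block stand beside those results. DESeq2 1.42.0, other scaling, filters, limits, resolutions and libraries left out were tried as alternatives. The scripts were tested on simulated counts with changes of known size. Every simulated gene had the same dispersion, and the changed genes included ones with low counts. The shares recovered therefore need not be those of the members. A log2 change of 1 was recovered in 16.4% (type I over type II HCs), 17.5% (vHCs over supporting cells) and 13.7% (vHCs over cHCs). It was recovered in 10% for macrophages and 5.33% for the interaction, so a member not called may still differ. A change of 2 was recovered in 79.2% to 96.2%, but in 30% for the interaction. False calls were 1.28% to 8.05% of calls, and 13.8% for the interaction. The members and lists were chosen with earlier results of these data known. Named genes were the mitochondrial members called in a comparison and the 2 highest and 2 lowest in vHCs, for each complex the 2 highest and the lowest nuclear subunits in vHCs, up to 5 called nuclear members each way per comparison, the isoforms and complex II, and up to 3 other pathway genes each way. A result that this rule would name is not reported here. Depth was 2738036 to 26974948 UMIs per library used, and intervals cover counting error only. Promoter sequence is from RefSeq (GRCm38.p6), and gene positions are from GENCODE M21.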

Additional observations from a re-analysis of the deposited data

Results flagged for a closer look

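In 8 of 108 groups of 4 libraries, 1 library stood apart from the other 3 by Dixon's 95% critical value, where chance gives about 1 in 20. Replicate 1 was low in the nuclear members' share of UMIs in type I HCs (2.78%, others 3.13% to 3.19%), IHCs (1.99%, others 3.63% to 3.84%), cHCs (2.11%, others 3.59% to 3.78%) and cochlear nonsensory epithelial cells (2.38%, others 3.87% to 4.14%). Replicate 3 was high in the mitochondrial members' share in vestibular granulocytes (3.25%, others 0.959% to 1.13%) and cochlear macrophages (7.17%, others 2.28% to 2.88%). Uqcrq in vHCs was 310.9 CPM in replicate 4, with the others at 286.1 to 288.3 CPM. Atp5mpl in vestibular supporting cells was 487 CPM in replicate 5, with the others at 380 to 392 CPM.

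The organ difference in HCs differed from that in macrophages, by the interaction test of edgeR, for Uqcrq (log2 -1.62, adjusted p = 0.00338) and Cox6c (log2 -1.10, adjusted p = 0.0455). The test took HC and macrophage sums of the same library as independent.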

How the results depend on the processing

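No called member changed direction under the alternatives run. Across them, 394 counts and summed shares stayed within 1.5 times the value reported or 1 SD of it, and 50 did not. Of the called members, 15 of 37 (vHCs over supporting cells), 2 of 11 (vHCs over cHCs), 2 of 6 (type I over type II HCs) and 0 of 2 (interaction) passed under all alternatives run. The cause of the changes below was not tested. Leaving out each library in turn gave 2 to 7 nuclear members higher and 1 to 3 lower for type I over type II HCs, 1 to 2 higher and 2 to 26 lower for vHCs over cHCs (mitochondrial 0 to 3 lower), 6 to 11 lower for vHCs over supporting cells, 0 to 1 higher for macrophages and 0 to 6 lower for the interaction.

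For type I over type II HCs, nuclear members lower were 2 (main 1) with no filter on low counts, with at least 2000 UMIs per cell, with the members used in clustering, with mixed HC clusters kept, and without type I subcluster 5, the subcluster of 203 cells (an alternative added after seeing the data). Nuclear members higher were 2 (main 5) at resolution 0.5 and with mixed HC clusters kept. With the replicate block they were 18 higher and 2 lower (11.5% and 13% of all genes), and 1 mitochondrial member was lower. For vHCs over cHCs, mitochondrial members lower were 2 with DESeq2 and with no filter, 4 with at least 2000 UMIs and 3 without subcluster 5 (main 1), and nuclear members higher were 4 with no filter (main 2). For vHCs over supporting cells, 26 were higher with the replicate block and, with no filter, 26 higher and 6 lower (main 15 and 10). Under 10% mitochondrial UMIs, 2 mitochondrial members were lower (main 12) and their share in supporting cells was 6.31%. With no filter, 1 nuclear member was higher in macrophages and in the interaction. For the interaction, 1 nuclear member was lower (main 2) with no mitochondrial limit, at least 2000 UMIs, resolution 0.5, members used in clustering, mixed clusters kept and without subcluster 5.

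vHCs and cHCs, and macrophages of both organs, share a replicate number and no library (correlations of 0.0479 to 0.196 and -0.0696 to 0.137). The labels do not say what a number shares between organs. The mitochondrial share followed it over both organs, highest in replicate 3 and lowest in replicate 4 in 17 of 19 classes each. With the number as a block, 3 nuclear members were higher, 12 lower and 13 mitochondrial lower in vHCs over cHCs, against 21.6% of all genes higher and 18.7% lower. In the interaction 6 nuclear and 1 mitochondrial were lower, against 7.33% of all genes. There the block was the replicate number over both organs, not the library that HCs and macrophages of an organ share. Cochlear classes rest on as few as 8 OHCs and 15 IHCs in a library, which limits these values.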
